A study of Homo sapiens with 8 samples.

Results

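FOXO factors and 7 of their known target genes were followed across 8 arrays of CAL-27, an established human cell line from a head and neck squamous cell tumour. The 10 genes were FOXO1, FOXO3, FOXO4, IRS2, PIK3IP1, TXNIP, SESN3, CITED2, BCL6 and CCNG2, and their probes were found by the gene names in the scanner tables (FOXO1 also as FOXO1A, FOXO3 also as FOXO3A). That rule found 8 genes with 14 probes, of 17516 gene symbols on 41000 probes. FOXO4 and PIK3IP1 stood in the tables under older names, MLLT7 and MGC17330. Their 5 probes were found by RefSeq accession and are not counted among the other 8 genes. All cells were serum-starved for 24 h, per the labels. They then received a compound called Go (n = 2), enzastaurin at 10 µM (n = 3) or the control treatment (n = 3), and the inhibitors were applied for 24 h. Enzastaurin is an inhibitor of protein kinase C, and the series title calls both compounds PCK inhibitors. The dose and full name of Go, what the controls received, and whether replicates were separate cultures are not given in the sources used here, and the spread behind each p-value may therefore be technical.

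FOXO proteins are forkhead transcription factors at the end of the insulin and growth factor pathway. When receptors, phosphoinositide 3-kinase and the kinases AKT and SGK are active, FOXO proteins are phosphorylated, bound by scaffold proteins of the YWHA family and kept out of the nucleus. When that signal is low, as in serum-starved cells, they enter the nucleus and activate genes of cell cycle arrest, stress defence and feedback on insulin signalling. Their location and phosphorylation were not measured by these arrays, which report RNA only.

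Each array gave 1 signal per probe, with array medians of 38 to 56 and 52.1% to 57.3% of probes above background (signal-to-noise above 3). A probe was tested where this held on at least 2 arrays, which left 24771 probes. Of the 14 probes found by gene name, 12 were tested, at least 1 for each of the 8 genes. No member probe had a saturated pixel. Spot positions place Go 1 and all 3 control arrays on 1 slide, and Go 2 and all 3 enzastaurin arrays on another. The slide is inferred, not labelled. Enzastaurin and control share no slide, so treatment and slide cannot be told apart between them except through the pair of Go arrays. All 9 keratinocyte markers with a probe (KRT5, KRT14 and others) were above background on all arrays. Of 6 fibroblast markers 1 was above background on all arrays and PDGFRB on none, yet their summed signal was 1333 to 1605 in Go, 1207 to 1508 in enzastaurin and 208 to 742 in control. The part of these signals in the results below was not tested. Of 6 leukocyte markers 4 were above background on all arrays; their sums were 1619 to 2060 in Go, 2038 to 2402 in enzastaurin and 1577 to 2001 in control, with PTPRC and LYZ above background on no array. Of 5 endothelial markers 1 was above background on all arrays, with sums of 78 to 134 in Go, 95 to 106 in enzastaurin and 106 to 124 in control, and PECAM1, KDR and TEK on no array.

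The number of the 8 genes that passed varied with the comparison and the setting. Enzastaurin against control asks what this inhibitor changes, and 3 of the 8 genes passed limma's test at an adjusted p of 0.05 (IRS2 and CITED2 lower, SESN3 higher), where 51.9% of all tested probes did (21.7% higher, 30.2% lower). SESN3 entered the test only through the enzastaurin arrays, where it is high. The count of genes was 5 of 8 with median scaling, where 47.1% of all probes passed, and 5 of 8 after averaging the probes of each gene, where 53.8% of genes did, so the order of the shares depends on the setting. Go against control asks the same of the other compound: 1 gene passed (CCNG2, higher), where 28.9% of all probes did (12.9% higher, 15.9% lower). Go against enzastaurin asks where the inhibitors differ, and 0 of the 8 genes passed by limma, 4 of them (TXNIP, CCNG2, CITED2 and SESN3) with an unadjusted p under 0.05. The background there was 3.81% (2.08% higher, 1.73% lower). Over 12598 named genes with 1 probe each, the shares were 53% for enzastaurin against control, 28.6% for Go against control and 4.8% for Go against enzastaurin. In limma's fit with the inferred slide as a block 0 of the 8 genes passed in any comparison (unadjusted p under 0.05 for CCNG2 and CITED2 in Go against enzastaurin, and for CCNG2 and TXNIP in Go against control), where 4.63%, 5.4% and 2.91% of all probes were for Go against enzastaurin, Go against control and enzastaurin against control. With 1 Go array on each slide, the block fit sets Go 1 alone against control and Go 2 alone against enzastaurin. For these comparisons it gives the same results as leaving out Go 2 and Go 1, and the 2 are not separate checks. Single arrays also moved the counts of called genes. In Go against control, 3 genes (IRS2, TXNIP and CCNG2) passed without Go 1, where 37.4% of all probes did, and 0 passed without Go 2 (5.4% of all probes) or without control 2 (3.87%). In Go against enzastaurin, TXNIP passed without Go 2. The split of calls over all probes depended on the scaling: 54.7%, 44.9% and 41.8% of calls were higher in the same order of comparisons, and 32.4%, 64.4% and 61.3% with each array scaled to its median.

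**Figure D1:**
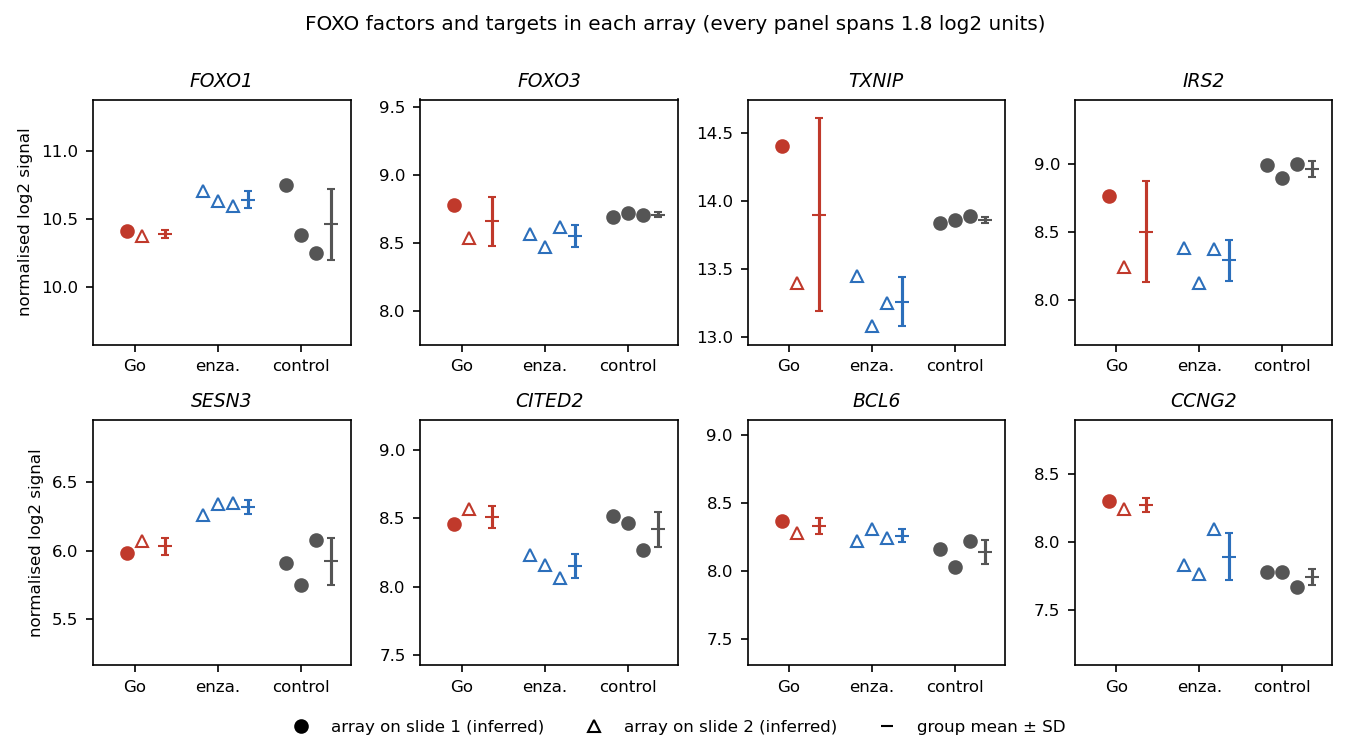
Normalised log2 signal of the probe that stands for each of 8 genes on every array (filled circles, arrays on inferred slide 1; open triangles, slide 2), with group means ± SD at the right of each group (Go n = 2, enzastaurin n = 3, control n = 3). TXNIP, IRS2 and FOXO3 are higher on every slide 1 array than on any slide 2 array. Go 1 of TXNIP is also above all controls (14.40 against at most 13.89), while CCNG2 is higher on both Go arrays than on any control array.

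Among the factors themselves, no difference in FOXO1 passed the test. FOXO1, the family member best known from insulin signalling, had normalised log2 signals of 10.41 and 10.37 in Go, 10.70, 10.63 and 10.59 in enzastaurin, and 10.75, 10.38 and 10.25 in control. The control arrays spanned more than both inhibitor groups together, and Go lay below every enzastaurin array. Its log2 difference was -0.25 between Go and enzastaurin (95% interval -0.58 to 0.07, adjusted p = 0.332). Against control it was -0.07 in Go (interval -0.40 to 0.25, adjusted p = 0.708) and 0.18 in enzastaurin (interval -0.11 to 0.47, adjusted p = 0.262). That last difference was 0.33 (adjusted p = 0.0213) without control 1, the highest control array, and 0.44 (adjusted p = 0.0189) with median scaling. The second FOXO1 probe read 7.95 and 7.81 in Go, 7.93, 7.87 and 8.07 in enzastaurin, and 8.26, 8.12 and 7.99 in control. It passed no test either, and its difference between enzastaurin and control was -0.16, opposite in sign to the brighter probe, while both were positive with median scaling (0.03 and 0.44).

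FOXO3, a FOXO factor tied to cell survival and stress resistance, gave different answers with its 2 probes. The brighter probe read 8.78 and 8.54 in Go, 8.57, 8.47 and 8.62 in enzastaurin, and 8.69, 8.72 and 8.71 in control. Its log2 difference between enzastaurin and control was -0.16 (interval -0.36 to 0.05, adjusted p = 0.167), and 0.05 with median scaling. The dimmer probe read 7.74 and 7.07 in Go, 7.41, 7.18 and 7.26 in enzastaurin, and 8.03, 7.69 and 7.74 in control, with all enzastaurin arrays below all control arrays. It fell by 0.53 on the log2 scale in enzastaurin (SE 0.174, adjusted p = 0.0326). That call was lost with adjusted p of 0.101, 0.0538, 0.054, 0.103 and 0.088 without control 1, control 2, enzastaurin 1, enzastaurin 2 and enzastaurin 3. It was also lost with median scaling (-0.38, adjusted p = 0.095) and with no filter on dim probes (adjusted p = 0.0672), and the difference was 0.14 with the slide as a block. Go 1 exceeded Go 2 by 0.67 on this probe, and Go against control was -0.42 (adjusted p = 0.131), or -0.75 (adjusted p = 0.0112) without Go 1.

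FOXO4, the X-linked family member, was not measurable. None of its 3 probes was above background on any array, and none was tested. Its brightest probe read 5.81 and 6.31 in Go, 6.06, 6.02 and 6.02 in enzastaurin, and 6.07, 6.02 and 6.0 in control, values near the lower end of the scale that give no order of groups.

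Promoters of 3 targets are printed: TXNIP and IRS2, whose slides did not overlap, and CCNG2, the gene called in Go against control. The choice was made after the values were seen, and other members that were called (SESN3 and CITED2) are not printed. Each is the 250 bases before a RefSeq start site on GRCh38.p14, 5′ to 3′ on the strand of the gene. These are TXNIP at chr1:145996580-145996829 (minus strand), IRS2 at chr13:109786584-109786833 (minus strand) and CCNG2 at chr4:77156957-77157206 (plus strand). Capitals mark GTAAACA, the core bound by FOXO factors, or CAAAACA, the core of the insulin response sequence, read on either strand.
TXNIP: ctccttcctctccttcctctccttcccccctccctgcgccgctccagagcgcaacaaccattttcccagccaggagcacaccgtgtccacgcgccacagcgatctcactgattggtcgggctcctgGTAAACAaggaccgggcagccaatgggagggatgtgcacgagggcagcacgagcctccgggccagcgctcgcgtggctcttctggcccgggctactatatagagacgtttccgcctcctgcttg
IRS2: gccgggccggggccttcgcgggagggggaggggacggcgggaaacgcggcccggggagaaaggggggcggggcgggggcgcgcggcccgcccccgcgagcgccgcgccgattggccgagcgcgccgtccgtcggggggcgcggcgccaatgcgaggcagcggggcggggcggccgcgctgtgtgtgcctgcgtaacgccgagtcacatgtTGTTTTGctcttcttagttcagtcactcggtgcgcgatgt
CCNG2: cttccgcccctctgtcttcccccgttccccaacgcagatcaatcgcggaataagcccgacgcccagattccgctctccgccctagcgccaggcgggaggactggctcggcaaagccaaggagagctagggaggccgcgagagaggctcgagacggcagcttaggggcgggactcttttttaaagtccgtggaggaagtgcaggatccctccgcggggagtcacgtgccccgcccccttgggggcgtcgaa
GTAAACA begins 124 bases before the TXNIP start site. CAAAACA lies on the opposite strand in IRS2 and begins 40 bases before the start site as printed, and neither motif is in the CCNG2 window. In windows of 300 bases (250 before and 50 after the start site), 3.42% of 35116 promoters hold GTAAACA and 4.92% hold CAAAACA. Of the 18 windows of the 10 genes, 3 hold GTAAACA (in TXNIP, FOXO4 and PIK3IP1) and 1 holds CAAAACA (in IRS2), with no overlap of the motifs. TXNIP has a second listed start site whose window holds neither. A match of letters is a description of the window and not a site of binding.

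IRS2 was lower in enzastaurin than in control on its brighter probe. IRS2 is an adaptor that passes the insulin signal to phosphoinositide 3-kinase, and FOXO factors are known to induce it in liver as feedback. Its normalised log2 signals were 8.76 and 8.24 in Go, 8.38, 8.12 and 8.37 in enzastaurin, and 8.99, 8.89 and 9.0 in control. Every enzastaurin and every Go array lay below every control array. IRS2 fell by 0.67 on the log2 scale in enzastaurin (SE 0.141, interval -1.0 to -0.35, adjusted p = 0.00562), to 0.628 times the control signal. Go against control was -0.46 (interval -0.82 to -0.10, adjusted p = 0.0593, or 0.0484 with 1 probe per gene), and Go against enzastaurin was 0.21 (interval -0.15 to 0.58, adjusted p = 0.458).

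The other IRS2 probes and the slide limit that result. The dimmest probe read 6.58 and 6.19 in Go, 6.26, 6.14 and 6.23 in enzastaurin, and 6.67, 6.87 and 6.49 in control. It fell by 0.46 on the log2 scale in enzastaurin (adjusted p = 0.0185), a call lost with adjusted p of 0.0693, 0.0669 and 0.0518 without control 2, enzastaurin 2 and enzastaurin 3. The second IRS2 probe, between them in brightness, read 6.62 and 7.04 in Go, 6.98, 6.81 and 6.74 in enzastaurin, and 6.85, 6.95 and 6.58 in control, with a difference of 0.05 (adjusted p = 0.802) and groups that overlapped. The brighter probe differed by -0.14 between enzastaurin and control with the slide as a block (interval -0.58 to 0.29, adjusted p = 0.641). Its Go arrays differed by 0.53. Go against control was -0.72 (adjusted p = 0.00663) without Go 1.

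PIK3IP1, an inhibitor of phosphoinositide 3-kinase at the membrane, was near background. One of its probes was tested, above background on both Go arrays and on no other. It read 6.16 and 6.27 in Go, 6.29, 6.26 and 6.40 in enzastaurin, and 5.79, 6.18 and 5.78 in control. The enzastaurin arrays exceeded all control arrays, with an adjusted p of 0.0239, or 0.0734 without control 1, 0.0564 without control 3, and 0.061, 0.0542 and 0.0829 without enzastaurin 1, 2 and 3. It was 0.101 with scaling to the 75th percentile and 0.469 with the slide as a block. No fold is given for it, since neither group was above background. Go and control overlapped and did not pass (adjusted p = 0.122), and the probe entered the test through the Go arrays alone.

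Of the 8 genes, TXNIP varied most between arrays of 1 group. It encodes a thioredoxin-binding protein that limits glucose uptake and is a known FOXO target. Its normalised log2 signals were 14.40 and 13.40 in Go, 13.45, 13.08 and 13.25 in enzastaurin, and 13.84, 13.86 and 13.89 in control. Go 1 was the highest of all 8 arrays, Go 2 lay within the enzastaurin range, and the enzastaurin arrays lay below every control array. The Go arrays differed by 1.0, more than 97.2% of tested probes, whose median difference was 0.18.

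No difference in TXNIP passed in the 3-group fit of all arrays, some did under other settings, and its values for Go rest on which Go array is used. Enzastaurin against control was -0.60 on the log2 scale (SE 0.225, interval -1.12 to -0.08, adjusted p = 0.0531), or -0.57 with an adjusted p of 0.0277 when arrays were scaled to the 75th percentile. At -0.60 it also passed with 1 probe per gene (adjusted p = 0.0411) and after averaging each gene's probes (adjusted p = 0.0422). The Go arrays also set the spread of the fit: without either of them that adjusted p was 0.00242. Go against enzastaurin was 0.64 (interval 0.06 to 1.22, adjusted p = 0.188), or 1.14 (adjusted p = 0.00428) without Go 2. Go against control was 0.04 (interval -0.54 to 0.62, adjusted p = 0.907), -0.46 (adjusted p = 0.0408) without Go 1, and 0.54 (adjusted p = 0.0713) without Go 2. Enzastaurin against control turned to 0.40 (adjusted p = 0.248) with the slide as a block, the opposite direction.

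SESN3, a sestrin that restrains growth signalling under stress and a known FOXO target, was above background only with enzastaurin. It read 5.98 and 6.07 in Go, 6.26, 6.34 and 6.35 in enzastaurin, and 5.91, 5.75 and 6.08 in control. All enzastaurin arrays, and no other, were above background, and they exceeded every Go and control array. SESN3 entered the test only through the enzastaurin arrays, where it is high, so its adjusted p in limma (0.0102) carries that selection. With no filter on dim probes the adjusted p in limma was 0.0144. SESN3 was at least 1.29-fold higher in enzastaurin than in control (group means 6.32 and 5.92). Such a bound sets the bright group against the dimmer group's values, raised to the lowest value above background on each array. The bound is a point value that leaves out the spread between arrays. The fitted difference was 0.40 (interval 0.18 to 0.63), and 0.82 with an offset of 16, so its size depends on the offset. Relative to Go the enzastaurin signal was at least 1.22-fold brighter, which did not pass (adjusted p = 0.173). The fit with the slide as a block gave 0.31 for enzastaurin against control (adjusted p = 0.332).

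CITED2, a coactivator-binding protein that is induced by FOXO factors and hypoxia, was lowest with enzastaurin. It read 8.46 and 8.57 in Go, 8.23, 8.16 and 8.06 in enzastaurin, and 8.52, 8.47 and 8.27 in control. All enzastaurin arrays lay below all control and Go arrays, by a small margin against control 3. CITED2 fell by 0.27 on the log2 scale in enzastaurin (SE 0.093, interval -0.49 to -0.06, adjusted p = 0.0391). The call was lost without control 1, control 2, enzastaurin 1, enzastaurin 2 or enzastaurin 3 (adjusted p of 0.109, 0.119, 0.06, 0.0975 and 0.129), and the difference was -0.07 with median scaling and -0.38 (adjusted p = 0.23) with the slide as a block. Go against enzastaurin was 0.36 (interval 0.12 to 0.60, adjusted p = 0.0973), and Go against control was 0.09 (interval -0.15 to 0.33, adjusted p = 0.521).

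BCL6, a transcriptional repressor and FOXO target best known in lymphocytes, passed no test. It read 8.37 and 8.28 in Go, 8.22, 8.31 and 8.24 in enzastaurin, and 8.16, 8.03 and 8.22 in control. The Go arrays lay above all control arrays, and the enzastaurin arrays reached or exceeded the highest control. Go against control was 0.19 (interval -0.02 to 0.40, adjusted p = 0.134) and enzastaurin against control was 0.12 (interval -0.06 to 0.31, adjusted p = 0.229), or 0.32 (adjusted p = 0.0222) with median scaling. Go against enzastaurin was 0.07 (interval -0.14 to 0.27, adjusted p = 0.69).

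CCNG2, an atypical cyclin that accompanies cell cycle arrest and is induced by FOXO factors, was the gene called higher in Go than in control. Its brighter probe read 8.30 and 8.24 in Go, 7.83, 7.76 and 8.09 in enzastaurin, and 7.78, 7.78 and 7.67 in control. Both Go arrays exceeded every other array, and the enzastaurin and control arrays overlapped. CCNG2 rose by 0.53 on the log2 scale in Go (SE 0.111, interval 0.27 to 0.78, adjusted p = 0.017), to 1.44 times the control signal. The adjusted p was 0.0652 with the slide as a block (difference 0.56) and 0.0591 without control 2 (difference 0.54). Leaving out Go 2 gave the same 0.56, since both fits set Go 1 alone against control, and is not a second check.

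Enzastaurin did not show the same change in CCNG2 at the test's threshold, and the inhibitors were not told apart. Enzastaurin against control was 0.15 (interval -0.08 to 0.38, adjusted p = 0.234), or 0.33 (adjusted p = 0.0193) with median scaling. Go against enzastaurin was 0.38 (interval 0.12 to 0.63, adjusted p = 0.102), a difference larger than those of 92.7% of all tested probes. The other CCNG2 probes were not tested: they were above background on 0 of 3 enzastaurin arrays and 0 of 2 Go arrays, and 1 of them on 1 control array.

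**Figure D2:**
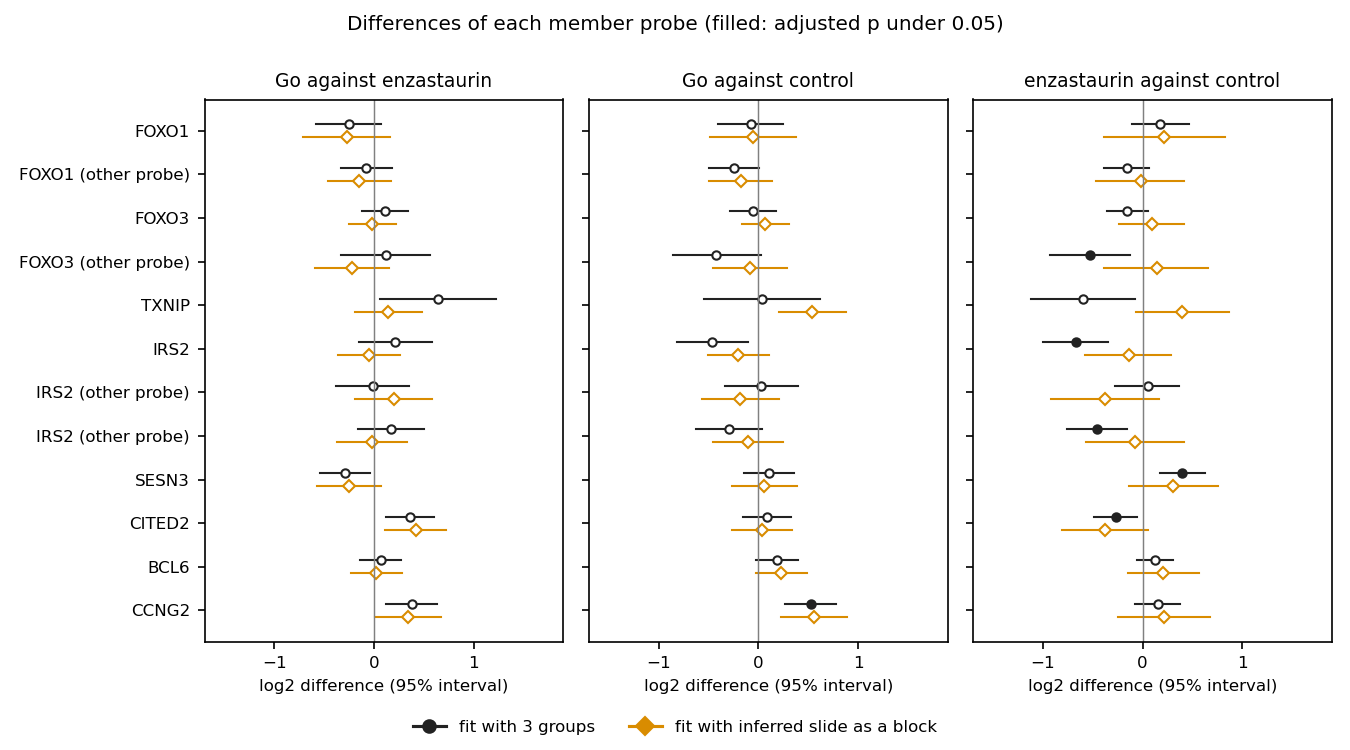
Log2 difference with its 95% interval for each tested probe of the 8 genes in the 3 comparisons, from the fit with 3 groups (black circles) and the fit with the inferred slide as a block (orange diamonds); filled symbols have an adjusted p under 0.05. Filled black symbols stand at CCNG2 for Go against control and at IRS2, SESN3, CITED2 and the dimmest probe of IRS2 and dimmer probe of FOXO3 for enzastaurin against control, and no orange symbol is filled.

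The slide pattern touched some members and not others. Arrays of slide 1 and slide 2 did not overlap for 3 of the 8 genes (FOXO3, TXNIP and IRS2), against 37.7% of all tested probes. TXNIP ran from 13.84 to 14.40 on slide 1, which holds Go 1 and the controls, and from 13.08 to 13.45 on slide 2, which holds Go 2 and enzastaurin. IRS2 ran from 8.76 to 9.0 on slide 1 and from 8.12 to 8.38 on slide 2. CCNG2, CITED2, SESN3, BCL6 and FOXO1 overlapped between slides.

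Within a slide the inhibitors can be set against 1 other group each. On slide 1, Go 1 exceeded the control mean by 0.56 for CCNG2 and 0.54 for TXNIP, and was at -0.20 for IRS2. On slide 2, Go 2 exceeded the enzastaurin mean by 0.42 for CITED2, 0.34 for CCNG2 and 0.14 for TXNIP, and was at -0.05 for IRS2. CCNG2 and TXNIP were thus above the comparison group on both slides, with 1 Go array on each. So were CITED2 (0.04 on slide 1) and BCL6 (0.23 on slide 1 and 0.02 on slide 2). The comparison group was control on slide 1 and enzastaurin on slide 2, so this is not the same difference seen again. The share of all probes with this pattern was not counted. These are the values that the fit with the slide as a block uses.

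The members' differences are set here beside those of all tested probes, which include the members. Groups of Go and enzastaurin did not overlap for 4 of 8 genes (45.5% of all probes), Go and control for 3 of 8 (56.3%), and enzastaurin and control for 6 of 8 (67.1%). The median log2 difference of the 8 genes and of all probes was 0.16 and 0.01 between Go and enzastaurin, 0.07 and -0.07 between Go and control, and -0.02 and -0.08 between enzastaurin and control. The median size, without sign, was 0.27 and 0.16, 0.10 and 0.25, and 0.23 and 0.31 for the same comparisons. These comparisons share arrays and are not independent of each other.

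**Figure D3:**
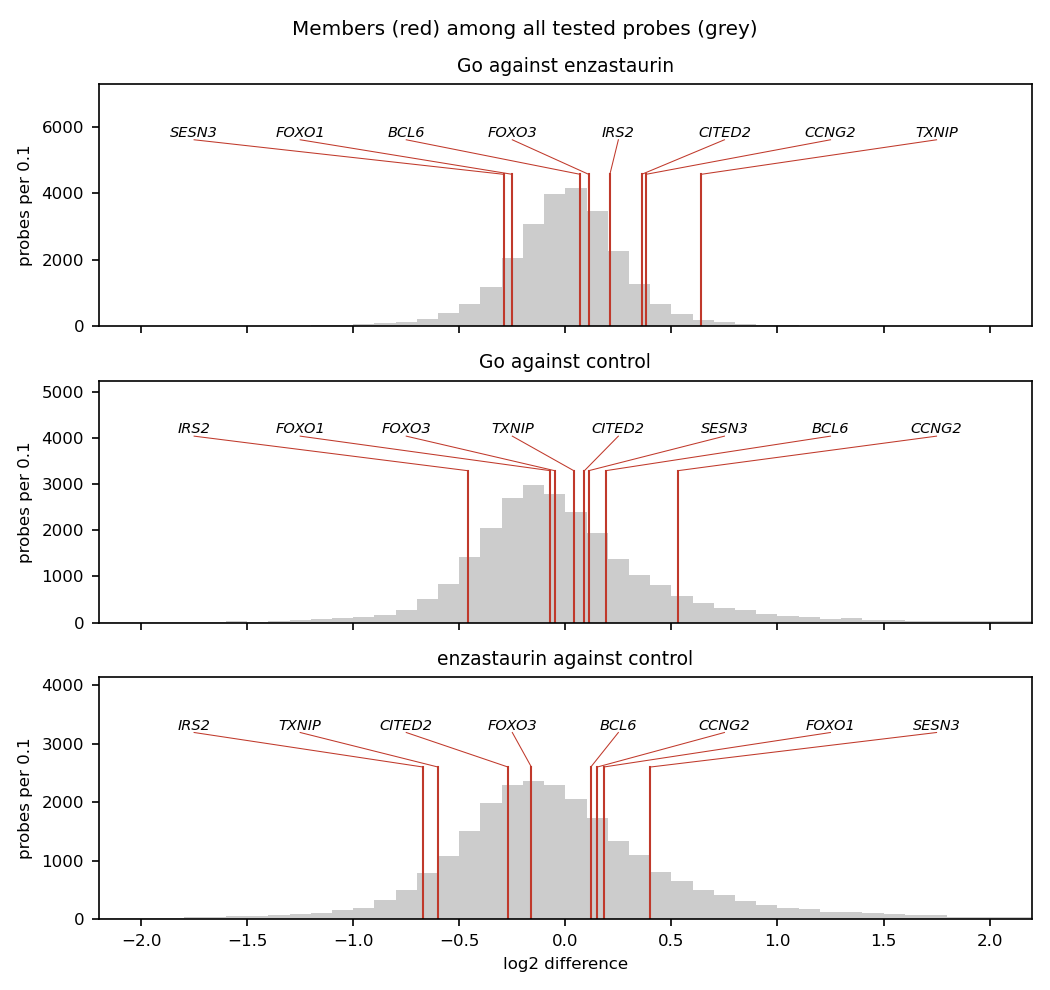
Distribution of log2 differences over 24771 tested probes (grey bars, probes per bin of 0.1) with the 8 genes marked in red, for Go against enzastaurin, Go against control and enzastaurin against control. TXNIP lies at 0.64 in the right tail for Go against enzastaurin, and IRS2 at -0.67 and TXNIP at -0.60 on the left for enzastaurin against control.

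The genes whose profiles over the 8 arrays were most like those of 3 members were found by the smallest root mean square log2 difference after centring each gene, over 12597 other genes. For TXNIP these were SPDEF (0.139), ANKRD33 (0.142) and SYT3 (0.150), where TXNIP itself varied by 0.401 around its own mean. For IRS2 they were COA7 (0.069), ZNF169 (0.071) and ADPGK (0.075), against 0.334 for IRS2. For FOXO1 they were CTNNBIP1 (0.063), ANXA2R (0.071) and GCA (0.071), against 0.170 for FOXO1. The likeness is over 8 arrays that share the group and slide differences above.

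Many other genes of the FOXO pathway were called, as were many probes of the whole array. A list of 60 genes held the kinase arm and nuclear regulators of FOXO (28 genes) and other known FOXO targets (32 genes), and 52 of the 59 with a probe were tested. Go against enzastaurin had 7 higher and 5 lower (23.1% of 52, where 4.8% of 12598 named genes with a tested probe were called, 2.98% higher and 1.82% lower). Go against control had 7 higher and 13 lower (38.5%, against 28.6%, of which 10.7% higher and 17.9% lower), and enzastaurin against control 12 higher and 18 lower (57.7%, against 53%, of which 17.3% higher and 35.7% lower). With the slide as a block the counts were 5 higher and 6 lower (21.2%, against 4.91%), 2 higher and 4 lower (11.5%, against 4.78%), and 0 higher and 2 lower (3.85%, against 2.52%). The list was drawn up with earlier results of these data known.

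Of 29 other targets tested, 7 were higher and 3 lower in Go than in enzastaurin, and the 4 largest of these changes were higher in Go. The list mixes targets that FOXO factors induce with targets that they repress, such as CCND2. The 7 and 3 therefore give no direction of FOXO activity. The D-type cyclin CCND1 was also among the higher ones (0.59, adjusted p = 0.0216). The 3 lower ones, named after their values were seen, were CDKN1A, the cyclin-dependent kinase inhibitor p21 (-0.64, adjusted p = 0.0274), BNIP3, a mitochondrial protein of cell death and mitophagy (-0.59, adjusted p = 0.0384), and SOD2, the mitochondrial superoxide dismutase (-0.59, adjusted p = 0.0291). CCND2, a D-type cyclin that FOXO factors are known to repress, read 9.53 and 9.38 in Go, 8.42, 8.45 and 8.18 in enzastaurin, and 9.58, 9.66 and 9.75 in control. Go lay close to control and enzastaurin far below both. CCND2 was higher in Go than in enzastaurin by 1.1 (SE 0.112, adjusted p = 0.00549) and fell by 1.31 in enzastaurin against control (SE 0.1, adjusted p = 0.000286), and it passed in all 17 alternative settings of both comparisons, at -0.80 for enzastaurin against control when its probes were averaged. CCND2 and PDK4 were the 2 list genes called lower in enzastaurin than in control with the slide as a block.

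GADD45B, a stress sensor of growth arrest, read 9.82 and 9.64 in Go, 8.69, 8.61 and 8.88 in enzastaurin, and 9.39, 9.65 and 9.66 in control. It was higher in Go than in enzastaurin by 1.0 (SE 0.127, adjusted p = 0.00878), with adjusted p of 0.0509 and 0.0566 without enzastaurin 1 and enzastaurin 2. KLF2, a Krüppel-like transcription factor, read 7.87 and 7.72 in Go, 6.98, 6.89 and 6.97 in enzastaurin, and 7.40, 7.24 and 7.29 in control. Go was the highest group for KLF2 and enzastaurin the lowest, a difference of 0.85 (SE 0.093, adjusted p = 0.00594) that passed in all 17 alternative settings, at 0.40 with the mean of the gene's probes.

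TNFSF10, the death ligand TRAIL, read 10.48 and 10.30 in Go, 9.42, 9.42 and 9.54 in enzastaurin, and 10.56, 10.49 and 10.09 in control. Go and control overlapped, and enzastaurin lay below both. It was higher in Go than in enzastaurin by 0.93 (SE 0.147, adjusted p = 0.0185) and fell by 0.92 in enzastaurin against control (SE 0.132, adjusted p = 0.00127). Its adjusted p with the slide as a block was 0.0506 and 0.14. Go against enzastaurin also lost its call without enzastaurin 1, 2 or 3 (adjusted p of 0.0878, 0.0933 and 0.0659). Leaving out Go 1 repeats the comparison made with the slide as a block.

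Among the list genes with the largest called changes, both inhibitors differed from control the same way for CDKN1B, SKP2 and PRDX3. PIK3R3, SGK3 and PDPK1 were also called higher in both, and IGF1R, YWHAZ, TRIB1, PDK4, BBC3 and PCK1 lower in both. The targets PDK4, BBC3 and PCK1 thus read lower (-0.52, -0.42 and -0.39 in Go) where CDKN1B rose. PCK1 (means of 6.06 in Go, 5.94 in enzastaurin and 6.45 in control) and IGF1R (5.87, 5.75 and 6.34) lay near the lower end of the scale. PDK4 was also dim (6.43, 6.42 and 6.94), and BBC3 lay near the upper end (15.27, 15.05 and 15.69). Their differences are limited by these levels. SFN and KLF2 were called in opposite directions. With the slide as a block, only PDK4 was called in both. CDKN1B, the cyclin-dependent kinase inhibitor p27 and a classical FOXO target, read 8.53 and 8.61 in Go, 8.64, 8.76 and 9.03 in enzastaurin, and 7.70, 7.40 and 7.72 in control. Every inhibitor array exceeded every control array. CDKN1B rose by 0.97 in Go (SE 0.143, adjusted p = 0.00759), which passed in all 17 alternative settings, and by 1.20 in enzastaurin (SE 0.128, adjusted p = 0.000569), with an adjusted p of 0.0674 with the slide as a block. These sizes depend on the probe and the background correction: the mean of the gene's probes gave 0.31 in Go and 0.35 in enzastaurin, and scanner intensities with normexp gave 0.62 and 0.64.

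SKP2, the ubiquitin ligase subunit that marks p27 and FOXO1 for degradation, read 8.57 and 8.09 in Go, 8.16, 8.22 and 8.12 in enzastaurin, and 9.40, 9.10 and 8.97 in control. Every inhibitor array lay below every control array. SKP2 fell by 0.83 in Go (SE 0.165, adjusted p = 0.0151) and by 0.99 in enzastaurin (SE 0.148, adjusted p = 0.00147). With the slide as a block the adjusted p was 0.0802 and 0.207, and for Go it was 0.0549 without control 2. For Go, leaving out Go 2 repeats the comparison made with the slide as a block.

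PRDX3, a mitochondrial peroxiredoxin, read 11.47 and 10.98 in Go, 11.69, 11.61 and 11.61 in enzastaurin, and 12.42, 12.23 and 12.19 in control. It was lowest in Go, and fell by 1.05 against control (SE 0.146, adjusted p = 0.00654) in all 17 alternative settings at the threshold. In enzastaurin it fell by 0.64 (SE 0.131, adjusted p = 0.00496), and it was not called there with the slide as a block. SGK1, a kinase that phosphorylates FOXO factors, read 12.00 and 11.72 in Go, 12.76, 12.76 and 12.53 in enzastaurin, and 12.79, 12.85 and 12.46 in control. Both Go arrays lay below all others, and SGK1 fell by 0.84 in Go against control (SE 0.149, adjusted p = 0.0114). That adjusted p was 0.0646 with the slide as a block and 0.0512 without control 2. The former is the same comparison as leaving out Go 2.

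**Figure D4:**
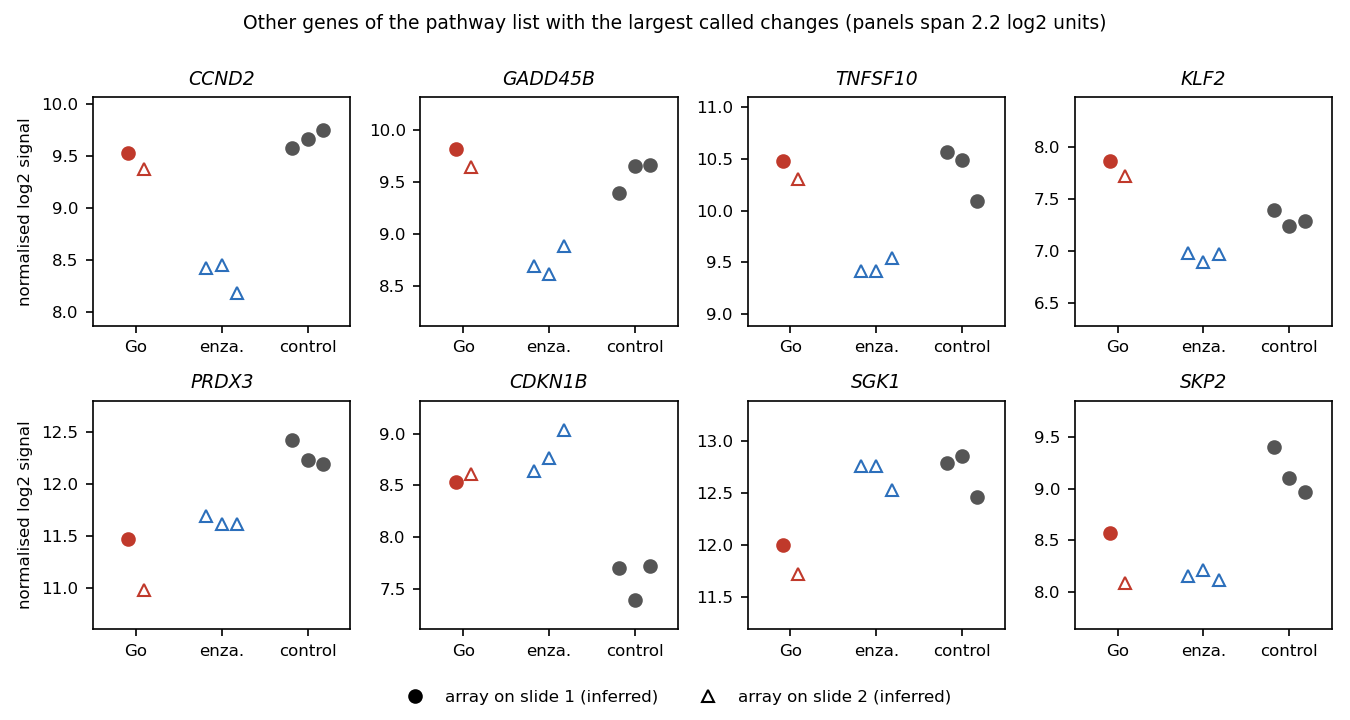
Normalised log2 signal on every array of 8 other genes of the pathway list, chosen as the largest called changes in each comparison (filled circles, inferred slide 1; open triangles, slide 2). CCND2, GADD45B and TNFSF10 are low on the enzastaurin arrays with Go near control, CDKN1B is high and SKP2 and PRDX3 are low on all inhibitor arrays, and SGK1 is low on the Go arrays.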

How the data were processed

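RNA of 8 CAL-27 samples was hybridised to single-colour Agilent arrays with Cy3, per the labels' protocols. The values used are the deposited table of background-subtracted intensity per probe, linear and floored at 0.5. Their processing is not stated in the sources used here. After the rotation given below, 39.4% to 41.9% of the values of an array equalled the floored scanner signal. Whether the other values had been normalised between arrays was not tested. The deposited scanner tables gave, per the file headers, a signal-to-noise score, the percent of saturated pixels and spot positions. Their annotation runs end for end against the spots and was rotated: the rank correlation with the value table was 0.0072 to 0.013 as deposited and 0.9904 to 0.9937 rotated. Genes were named by RefSeq accession (23434 probes), current symbol (2317) or a unique older symbol (1038), and 14211 probes were left unnamed.

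Signals plus 50 were quantile normalised and log2 transformed, so differences of dim probes are understated. Differences were tested with limma 3.58.1 in R 4.3.3, 1 fit with 3 groups on all 8 arrays (residual degrees of freedom 5, prior 3.18), Benjamini-Hochberg adjustment over 24771 probes, and a threshold of 0.05. The fit with the slide as a block had 4 residual degrees of freedom and a prior of 3.23. Slides were told apart by the mean horizontal position of each array's spots (10930.1 to 10951 µm on slide 1, 10897.1 to 10904.5 µm on slide 2). The procedure was tested on simulated data. At most 0.654% of 153 negative control spots exceeded the signal-to-noise minimum on an array. The brightest probe over 8 arrays stands for its gene. Members, lists and the rule for named genes were chosen with earlier results of these data known: every member probe, at most the 4 largest called changes of the pathway list in each comparison, and the 3 genes most like TXNIP, IRS2 and FOXO1. The only precision limit given is the number of arrays.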

Additional observations from a re-analysis of the deposited data

How the results depend on the processing

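Over 51 single probe results and their alternatives, 741 of 840 values kept direction and side of the threshold, 47 lost a call, 18 gained one and 34 changed sign. The slide as a block repeats the fit without Go 2 for Go against control, and without Go 1 for Go against enzastaurin. These repeated values are counted under both settings, here and in the counts of settings for single genes. The offset of 16 changed no direction or call of a single probe and no count by more than 1.5 times (745, 6529 and 12681 of all probes, against 944, 7147 and 12852). It gave 0.82 for SESN3 and 0.81 for PIK3IP1 in enzastaurin against control, each 0.40 with the offset of 50. For PIK3IP1 neither of these groups was above background, so its values are not read as a fold. The cause of the changes was not tested. The slide as a block had the most effect: 12 of the lost calls and 11 of the sign changes came from it. With it 0 member genes were called in Go against control and 0 in enzastaurin against control, and 1338 and 721 of all probes. It turned enzastaurin against control to 0.40 for TXNIP, 0.09 and 0.14 for the brighter and dimmer FOXO3 probes, and -0.38 for the second IRS2 probe. For Go against enzastaurin it gave -0.02 and -0.22 for these FOXO3 probes and -0.05, 0.20 and -0.02 for the brightest, second and dimmest IRS2 probes, and for Go against control 0.07 for FOXO3 and -0.18 for the second IRS2 probe.

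Median scaling called 5 of 8 member genes in enzastaurin against control, where 47.1% of all probes were called, and turned FOXO1 (0.09) and FOXO3 (0.06) in Go against control, BCL6 (-0.02) in Go against enzastaurin, and FOXO3 (0.05) and the dimmer FOXO1 probe (0.03) in enzastaurin against control. It moved the median of all probes to 0.06 in enzastaurin against control, where quantile normalisation gave -0.08. Scaling to the 75th percentile turned the second IRS2 probe to 0.03, -0.02 and -0.04 in Go against enzastaurin, Go against control and enzastaurin against control, and the scanner intensities with normexp gave -0.12 for it in Go against control. With 1 probe per gene, 2 member genes were called in Go against control, and 3998 and 6944 genes in all for Go and enzastaurin against control. The mean of a gene's probes gave 5 of 8 member genes in enzastaurin against control, where 53.8% of genes were called, and 3948 and 6806 genes in all. These counts over all genes are smaller because 12598 and 12641 genes were tested in place of 24771 probes.

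Samples with the same replicate number did not all deviate together (correlations of -0.144 to 0.167), so the numbers were not taken as pairs. With the replicate block, 0, 2 and 4 member genes were called in Go against enzastaurin, Go against control and enzastaurin against control, and 217, 7583 and 12419 of all probes, and the second IRS2 probe was at -0.05 in Go against control. The block brought the adjusted p to 0.0404 for IRS2 and 0.0411 for the dimmer FOXO3 probe in Go against control, to 0.034 for TXNIP in enzastaurin against control and to 0.0704 for TNFSF10 in Go against enzastaurin, and it changed no other call of a single probe.

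Leaving out 1 array at a time gave 0 to 1 member genes in Go against enzastaurin (106 to 2423 of all probes), 0 to 3 in Go against control (958 to 9932) and 2 to 4 in enzastaurin against control (9380 to 14140). The lone remaining Go array was then assumed to vary like the other groups. Go against control ranged from -0.46 to 0.54 for TXNIP, from -0.18 to 0.07 for FOXO1, from -0.17 to 0.07 for FOXO3 and from -0.18 to 0.24 for the second IRS2 probe. Go against enzastaurin ranged from -0.02 to 0.23 and from -0.22 to 0.45 for the FOXO3 probes, and from -0.05 to 0.48, -0.23 to 0.20 and -0.02 to 0.36 for the IRS2 probes. The second IRS2 probe ranged from -0.06 to 0.12 in enzastaurin against control. FOXO4 and the dim CCNG2 probes were limited by background, and Go by its 2 arrays.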
